A study of Mus musculus with 2 samples.

Results

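This account covers 54 genes that lie on either side of Fgf9 on mouse chromosome 14, out of 32285 features in the deposited tables. They were taken by symbol from the stretch between 52 and 64 Mb of the GRCm38 build, in which the tables hold 386 other features, Fgf9 included. By the GENCODE vM21 annotation, 44 of the genes lie towards lower coordinates from Fgf9 and 10 towards higher coordinates, and the nearest is Micu2 at 71.3 kb. Single cells of the pancreas at embryonic day 14.5 were profiled in droplets (10x Genomics), where each captured RNA receives a droplet's barcode and a random sequence, the UMI, by which copies of a molecule are counted once. The library called Control pooled 8 pancreata from 3 litters of the genotypes Fgf9 +/+ and +/-, so it mixes wild-type embryos with carriers of the targeted allele. The Null library pooled 3 pancreata from 3 litters of the genotype Fgf9 -/-, in which a LacZ cassette sits in both copies of the locus. Mice of both groups were from the Fgf9 LacZ line kept on a C57BL/6J background, tissue was dissociated with TrypLE, and DAPI-negative cells were sorted after a size gate.

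Fgf9 encodes a secreted fibroblast growth factor that signals from epithelium and mesothelium to the mesenchyme of developing organs. A cassette placed in a gene can change the level of its neighbours in cis, and an allele made in one mouse strain and crossed into another carries linked sequence of the first strain with it. Both would show as differences in genes near the locus, and the comparison asks whether such differences are seen. The labels do not name the strain of the cells in which the allele was made. The 54 genes share no single function: they encode a T cell receptor chain, proteasome parts, chromatin factors, nuclear transport receptors, mitotic and ciliary proteins, and enzymes and transporters.

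With 1 library per group, the differences have no replicate check, and no test between groups was made. Intervals are exact 95% intervals of the counts; they reflect counting error and leave out variation among embryos or preparations. After filtering, the Control library held 26959 barcodes with a median of 5728 UMIs and the Null library 8884 barcodes with a median of 24259 UMIs. The libraries also differed in sex: Xist, whose RNA coats the silenced X of female cells, had a level of 384 CPM, counts per 1000000 UMIs, in Control and 0.290 CPM in Null cells. They shared 73 of the kept barcode sequences. Cells were grouped by marker genes into classes that are named for what they resemble (mesenchymal-like or acinar-like, for example, with the ending dropped below), and 7 classes with at least 200 cells in each library were compared. Low-UMI or mixed barcodes were left unnamed, which took 12490 Control and 974 Null barcodes. Acinar enzyme genes, whose RNA leaks from acinar cells into other droplets, made up 0.308% of UMIs in Control and 0.188% in Null endocrine cells, and 0.341% and 0.158% in mesenchymal cells. An estimate built on these enzymes put free RNA at 20.5% to 33.3% of the UMIs of non-acinar classes in Control and 6.06% to 8.24% in the Null library.

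Fgf9 itself (ENSMUSG00000021974, chromosome 14, 58070547 to 58112720, plus strand) had 2887 UMIs in Control and 411 in Null cells. Its level was 9.25 CPM (8.92 to 9.59) against 1.70 CPM (1.54 to 1.88), a log2 ratio of Null over Control of -2.44 (-2.59 to -2.29). Mesothelial cells held most of these UMIs, with 1787 and 348, and a log2 ratio of -1.64 there. Finer clusters split this class by library: one led by Barx1 and Cav1 held 1055 Control and 94 Null cells, and one led by Upk3b and Oprk1 held 72 and 407. Within them Fgf9 stood at -0.64 (-0.90 to -0.38) and -1.65 (-2.04 to -1.24). In ductal or bipotent cells the counts were 302 and 13, and in endocrine cells 169 and 3. How much of the gene the cassette replaces is not stated in the labels, and the assay reads tags near the 3' end of transcripts. UMIs found in Null cells are therefore no check of the allele.

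Across the flanking genes as a whole, the libraries differed little. All 54 had at least 50 UMIs over both libraries, the minimum for a gene to count as measured, and their median log2 ratio over all kept cells was -0.01, beside 0.04 for 18516 measured features. The median size of the log2 ratio, without its sign, was 0.10 for the flanking genes and 0.14 for all features. For the 104 other measured features between 52 and 64 Mb, without Fgf9, it was 0.17. The flanking genes were not matched to other features by UMI count, so these sizes are not a like comparison. Of the 54 genes, 52 (96.3%) lay within 1.5-fold, beside 89.4% of all features. A single flanking gene, Trac, differed by 2-fold or more, and it was higher in the Null library. Over the same cells 2.55% of features were higher by at least 2-fold and 1.3% lower. Without Trac, the log2 ratios of the other 53 genes ran from -0.29 (Efs) to 0.59 (Slc7a7).

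Of the 54 genes, those closest to Fgf9 had ratios near 0 over all kept cells. The 9 genes within 1 Mb of it had a median log2 ratio of 0.02 over all kept cells, with a range from -0.10 to 0.18, and 16 genes within 2 Mb had a median of 0.03. All 9 lie towards lower coordinates, and the nearest listed gene on the other side, Rcbtb1, lies at 1.09 Mb. By class, 2 of the 9 were lower by 2-fold or more in endocrine cells (Gjb2 and Ska3). Gjb2 was also lower in mesenchymal and higher in mesothelial cells. The shares of all features were 5.64%, 5.44% and 4.63%, and these counts are too few to be read against them. Micu2, which encodes a regulator of the mitochondrial calcium uniporter (57916261 to 57999262, minus strand), had 17159 UMIs and 55.0 CPM (54.2 to 55.8) in Control and 14265 UMIs and 59.2 CPM (58.2 to 60.2) in Null cells. Its log2 ratio was 0.11 (0.07 to 0.14). Zdhhc20, a palmitoyltransferase 180 kb from Fgf9, stood at -0.01 (-0.05 to 0.03), from 46.5 and 46.2 CPM. Ska3, a kinetochore subunit 244 kb away, stood at -0.09, and Sap18, a histone deacetylase complex subunit 264 kb away, at 0.07. Lats2, a kinase of the Hippo pathway, had 12.7 CPM in both libraries. Xpo4, a nuclear export receptor, stood at -0.10, and Ift88, needed to build cilia, at 0.18 (0.13 to 0.23). Cryl1, a lambda-crystallin-like dehydrogenase, and Rcbtb1, a BTB-domain protein on the far side of Fgf9, both stood at 0.02, and Gjb2, a gap junction protein at 966 kb, at 0.16. Features outside the list went further: Gm33321, a long noncoding RNA at 0.188 Mb, had 157 and 66 UMIs, a log2 ratio of -0.88 (-1.32 to -0.45). Most of its UMIs were mesothelial, 129 and 61, where it stood at -0.36 (-0.82 to 0.09). Gjb6, beside Gjb2, stood at 0.91 (0.61 to 1.22). These are sums over all classes, so shifts in cell makeup enter them.

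**Figure D1:**
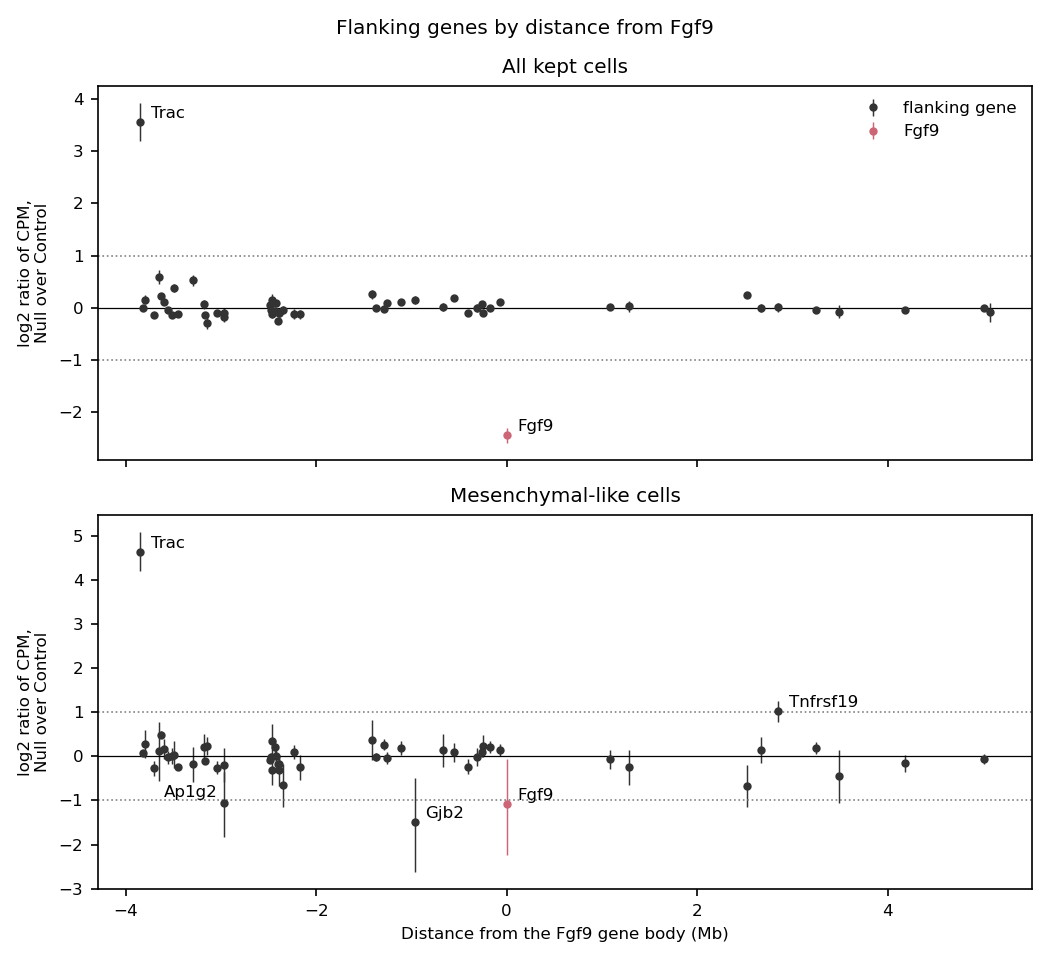
Each point is a gene with at least 50 UMIs over both libraries, placed by the distance between its gene body and that of Fgf9 in Mb (horizontal) and its log2 ratio of CPM, Null over Control (vertical), with 95% counting intervals. Over all kept cells (top) the 9 genes within 1 Mb lie between -0.10 and 0.18, and Trac stands apart at 3.55. In mesenchymal cells (bottom) Trac stands at 4.63, and the dotted lines mark 2-fold.

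The median ratios of the stretch around Fgf9 and of its neighbouring stretches of the same length all lay close to 0. The 159 measured features with a start between 52 and 64 Mb had a median log2 ratio of 0.005 and a median size of 0.13 over all kept cells. The stretch of 12 Mb before it, from 40 Mb, had a median of 0.05 and a median size of 0.15, and the one after it, from 64 Mb, 0.03 and 0.15. The other features between 52 and 64 Mb that are not in the list of 54 numbered 104 once measured, without Fgf9. They had a median of 0.03 and a median size of 0.17. Among them 3 were higher by 2-fold or more (2.88%) and 2 were lower (1.92%), beside 2.55% and 1.3% of all features. These counts are too few to be read against those shares. These windows were not compared by a test. A median over many features would not show a change confined to a few of them.

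Within classes, 12 of the 54 genes differed by 2-fold or more in at least 1 class, with an interval that excluded 0, and 42 did not in any of the 7 classes. The same count over all features was not made, so the 12 cannot be read as many or few. Gjb2 was the one gene past 2-fold in more than 1 class. In mesenchymal cells 2 of 53 measured genes were higher (Trac and Tnfrsf19) and 2 lower (Gjb2 and Ap1g2), where 3.27% of all features were higher and 5.44% lower. In mesothelial cells 1 of 51 was higher (Gjb2) and 0 were lower, beside 4.63% and 4.97% of features. In acinar cells 1 of 53 was higher (Slc7a8) and 0 were lower, beside 0.992% and 2.13%. In ductal or bipotent cells 0 of 53 passed 2-fold in either direction, beside 1.89% and 1.16%. In endocrine progenitor cells 1 of 50 was higher (Slc7a7) and 0 were lower, beside 0.348% and 1.74%. In endocrine cells 0 of 52 were higher and 5 were lower (Gjb2, Ska3, Ajuba, Haus4 and Tinf2), beside 0.753% and 5.64%. In immune cells 0 of 46 were higher and 2 were lower (Mmp14 and Thtpa), beside 2.53% and 8.22%. Outside the endocrine class these are counts of 0 to 2 genes a direction, too few to be read against the shares of all features. The 5 endocrine genes are 9.62% of those measured, beside the 5.64% of features. That count is small too and ran from 2 to 6 under the alternative settings given below, so it is not read as an excess. The median log2 ratio of the flanking genes lay between -0.09 (immune) and 0.05 (ductal or bipotent).

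**Figure D2:**
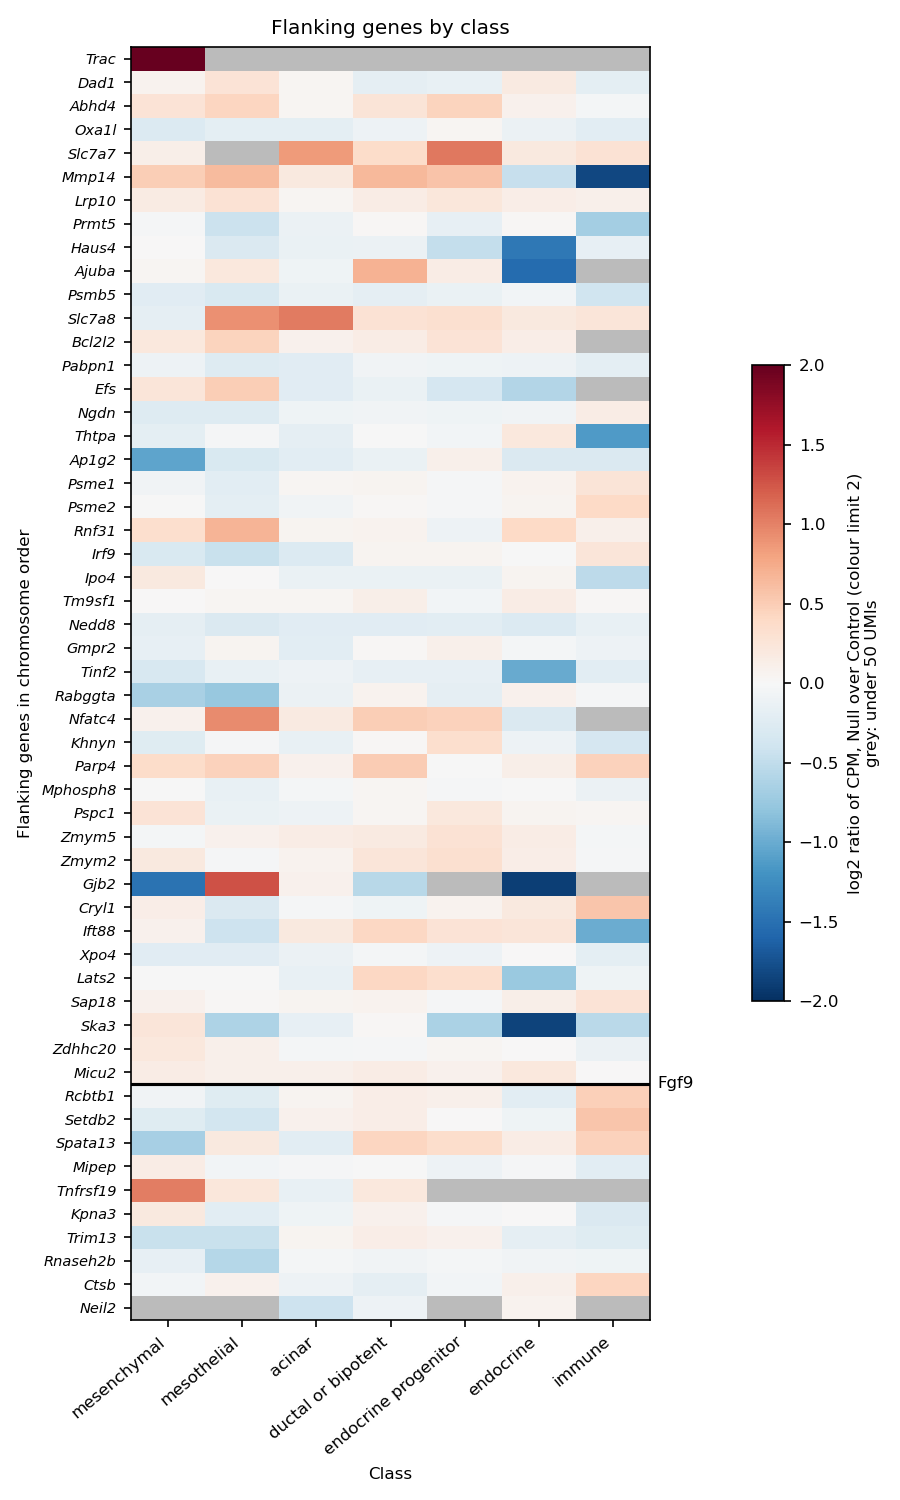
Rows are the 54 flanking genes in chromosome order, with the black line at the place of Fgf9, and columns are the 7 classes compared. Colour gives the log2 ratio of CPM, Null over Control, limited at 2 in size, and grey marks genes under 50 UMIs in a class. Most entries are pale; Trac in mesenchymal cells, Mmp14 in immune cells and Gjb2, Ska3, Ajuba and Haus4 in endocrine cells are among the strongest.

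Trac is the constant region of the T cell receptor alpha chain, a gene that makes a working receptor after V and J segments have been joined to it in developing T cells. It lies 3846 kb from Fgf9 (ENSMUSG00000076928, chromosome 14, 54220521 to 54224206, plus strand). The first 300 of 410 coding bases of transcript Trac-201 in GENCODE vM21, which has 3 exons, are shown because the UMIs assigned to this gene make the largest flanking difference. The sequence begins at the splice junction to the J segment and so has no start codon of its own.
Trac-201: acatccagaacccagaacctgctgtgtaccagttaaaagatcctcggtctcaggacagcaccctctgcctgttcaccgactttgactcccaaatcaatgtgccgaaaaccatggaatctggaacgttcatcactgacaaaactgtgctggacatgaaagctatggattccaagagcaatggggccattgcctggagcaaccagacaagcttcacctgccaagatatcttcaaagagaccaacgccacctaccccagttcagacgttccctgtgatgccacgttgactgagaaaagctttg

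Trac UMIs numbered 73 in Control and 660 in Null cells over all kept barcodes, and 46 and 600 of these were in mesenchymal cells. Its level there was 1.74 CPM (1.28 to 2.32) in Control and 43.1 CPM (39.7 to 46.7) in Null cells, a log2 ratio of 4.63 (4.19 to 5.09). In the Control library 28 of 2625 mesenchymal cells (1.07%, 0.710 to 1.54) held a Trac UMI, and in the Null library 132 of 813 cells (16.2%, 13.8 to 19.0). The median depths were 9503 and 17666 UMIs per cell. With each cell thinned to 2000 UMIs, which left out 28 and 36 shallower cells, the shares were 0.231% (0.0848 to 0.502) and 5.53% (4.03 to 7.38). The intervals of the 2 libraries do not overlap on either scale. They treat the cells of 1 pool per group as independent and leave out variation among the pooled embryos.

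The UMIs were unevenly spread over cells. No Control mesenchymal cell held more than 4 Trac UMIs, while the highest Null cell held 42, and the 17 Null cells with the most UMIs carried at least 50% of the 600. Acinar cells, which should lack the gene, had a Trac UMI in 0.0854% of 3514 Control cells and 0.157% of 2554 Null cells, at median depths of 31798 and 47284 UMIs. The mesenchymal shares of both libraries lay above these.

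In other classes Trac was rare. Mesothelial cells had 6 UMIs in Control and 18 in Null cells, a log2 ratio of 2.31 (0.91 to 3.93), and 17 of the 18 lay in the Upk3b and Oprk1 cluster, at 2.52 CPM in Control and 2.21 CPM in Null. Immune cells had 5 and 10 UMIs, at 0.839 CPM (0.272 to 1.96) and 1.94 CPM (0.930 to 3.57), whose intervals overlap. Acinar cells had 3 and 4 UMIs, and ductal or bipotent cells 2 and 3. Endocrine cells had 2 and 0. Endocrine progenitor cells had 0 of 1003 and 0 of 412 cells with a UMI, which allows shares of up to 0.299% and 0.728%.

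**Figure D3:**
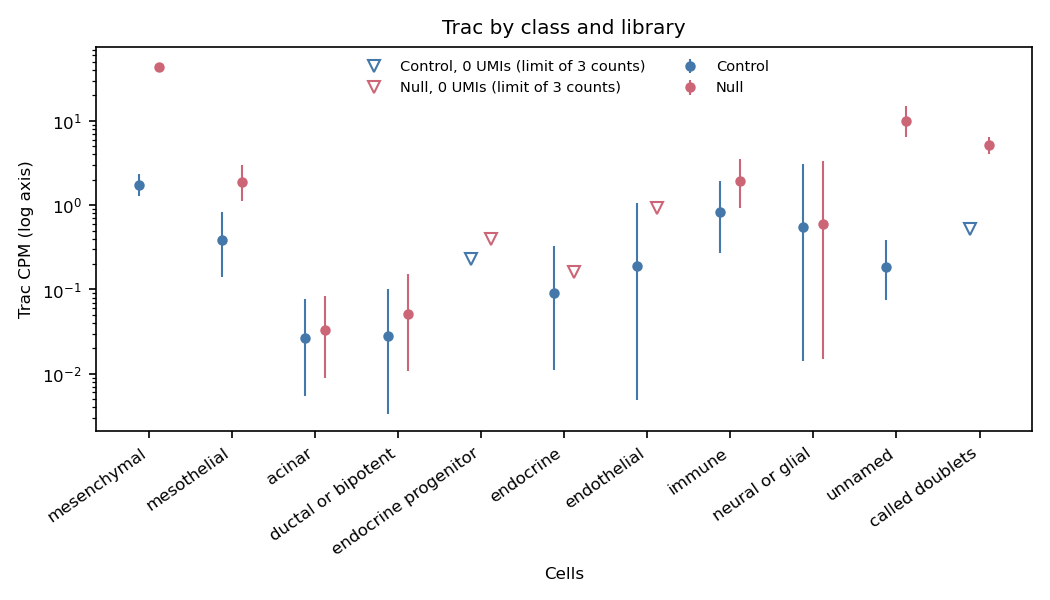
Points give Trac CPM on a log axis in each class, in unnamed barcodes and in called doublets, for the Control and the Null library, with 95% counting intervals; open triangles mark 0 UMIs, drawn at the level of 3 counts. Null mesenchymal cells stand highest at 43.1 CPM, followed by unnamed Null barcodes at 9.98 CPM and called Null doublets at 5.14 CPM.

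The mesenchymal cells with Trac lacked most other T cell RNA. Of the 132 Null cells, 0 held a UMI of Cd3d, Cd3e or Cd3g, subunits of the CD3 complex that carries the receptor to the surface, of the pan-leukocyte gene Ptprc, or of Cd4. Cd247, the zeta chain, was found in 2 of them, Trbc1 in 1, Trbc2, a constant region of the beta chain, in 2, and Lck, a T cell kinase, in 2. Over the whole list of 14 T cell markers the summed level in mesenchymal cells was 17.8 CPM in Control and 17.4 CPM in Null cells. Most of this came from Thy1, with 282 and 192 UMIs, and Trbc2, with 114 and 15. The 198 V, D and J segments of the alpha and delta chains, which stand beside Trac, together had 4 UMIs in mesenchymal cells of Control and 1 in those of Null. Trdc, the constant region of the delta chain, had 0 and 9 UMIs in the same cells, and 7 of the 9 lay in 5 of the 132 cells with Trac.

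The same cells carried mesenchymal RNA. All 132 held Col1a1 and 131 held Col3a1, both fibrillar collagens. Mgp, an inhibitor of matrix calcification, was found in 108 (81.8%), beside 47.3% of the 681 Null mesenchymal cells without Trac. Stmn2, a regulator of microtubules, was found in 104 (78.8%), beside 23.9%. Acta2 was found in 72.0%, beside 64.9%, Lum in 87.1%, beside 80.3%, and Barx1 in 11.4%, beside 16.9%. Mgp and Stmn2 are both leading genes of a finer cluster that held 117 Null cells with Trac. Median depths were alike, 18170.5 UMIs with Trac and 17619 without. Among the 28 Control cells with Trac, 16 (57.1%) held Mgp and 11 (39.3%) Stmn2, beside 10.9% and 7.70% of the 2597 without. These genes were examined after their values were seen.

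Clusters within the class differed in Trac and in how the libraries filled them. At the finer clustering, a cluster led by Acta2, Lum, Mgp and Tagln held 312 of 2625 Control and 540 of 813 Null cells, and most of the Trac UMIs, 33 and 554. A cluster led by Prrx1, Sparcl1 and Basp1 held 1696 Control cells and 63 Null cells, with 3 UMIs and 1. Different clusters therefore hold most of the class in the 2 libraries, and this touches every mesenchymal value here. Within the Acta2 and Mgp cluster Trac stood at 9.04 CPM in Control and 59.4 CPM in Null cells, a log2 ratio of 2.72 (2.21 to 3.27). The difference between the libraries was thus smaller within that cluster than over the class, and still above 2-fold. In mesenchymal cells with an Mgp UMI the log2 ratio was 2.99, and in those without 4.09.

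The gene next to Trac in the list did not share its difference. Dad1, a subunit of the oligosaccharyltransferase complex (54235479 to 54254104, minus strand), had 9191 UMIs and 348 CPM in Control and 5108 UMIs and 367 CPM in Null mesenchymal cells. Its log2 ratio was 0.08 (0.03 to 0.12). It was found in 127 of the 132 Null cells with Trac (96.2%) and in 91.04% of the others. Abhd4, a lipid hydrolase and the next gene of the list, ran from -0.03 to 0.44 over the 7 classes.

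Of the membrane, matrix and transport genes, all 7 had a log2 ratio above 0 over all kept cells, with a median of 0.16, but their classes went different ways. Among all 18516 measured features, 10608 were above 0 over the same cells. Of these transport and membrane genes, 5 of 7 measured were above 0 in mesenchymal and 4 of 6 in endocrine cells. Mmp14, the membrane-bound collagenase MT1-MMP, was highest in mesenchymal cells, with 3415 UMIs and 129 CPM (125 to 134) in Control and 2533 UMIs and 182 CPM (175 to 189) in Null cells. Its log2 ratio was 0.49 there, 0.64 in mesothelial cells, 0.64 in ductal or bipotent cells and 0.57 in endocrine progenitor cells. Within the 2 finer clusters of the mesothelial class it was 0.19 (-0.06 to 0.44) and 0.35 (0.02 to 0.71). In immune cells it had 131 UMIs and 22.0 CPM (18.4 to 26.1) against 32 UMIs and 6.21 CPM (4.25 to 8.76), a log2 ratio of -1.82 (-2.43 to -1.26). The immune class had the highest estimate of free RNA in the Control library, 33.3% against 8.24%. With that estimate subtracted, Mmp14 stood at -2.34 in immune cells, and at -1.21 with the immune clusters weighted alike.

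Gjb2 encodes connexin 26, a gap junction protein of epithelia. It was highest in acinar cells, with 1791 UMIs and 15.9 CPM in Control and 2038 UMIs and 16.9 CPM in Null cells, a log2 ratio of 0.09 (-0.01 to 0.18). In mesothelial cells it had 34 and 50 UMIs, a log2 ratio of 1.28 (0.62 to 1.95), and 3.63 with free RNA subtracted. Within the 2 finer clusters of the mesothelial class Gjb2 stood at 0.96 (-0.47 to 2.18) and 0.56 (-1.08 to 2.90), and both intervals include 0. Gjb6, which encodes connexin 30 and is not in the list, had 4 and 72 UMIs in mesothelial cells, 0.256 against 7.59 CPM, a log2 ratio of 4.89 (3.47 to 6.81). Of these, the Upk3b and Oprk1 cluster held 2 and 69, at 2.52 and 8.95 CPM (log2 ratio 1.83, -0.08 to 4.90), so the part of cluster makeup cannot be told apart at these counts. In mesenchymal cells Gjb2 had 53 and 10 UMIs (-1.48, -2.62 to -0.49). In ductal or bipotent cells Gjb2 had 458 and 253 (-0.55), and in endocrine cells 48 and 11 (-1.89, -2.98 to -0.92). Acinar enzyme UMIs were also lower in the Null library in the mesenchymal and endocrine classes, with median log2 ratios of -1.15 over 13 enzymes and -0.79 over 12. In mesenchymal and endocrine cells, subtracting the free RNA estimate left no Gjb2 in at least 1 library, so no ratio can be given there.

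Slc7a7 and Slc7a8 encode the light chains of amino acid transporters. Slc7a8 had 405 UMIs and 3.59 CPM (3.25 to 3.96) in Control and 890 UMIs and 7.36 CPM (6.89 to 7.86) in Null acinar cells, a log2 ratio of 1.03 (0.86 to 1.21). It was 0.77 with the acinar clusters weighted alike and 0.90 as a mean over cells. Slc7a7 stood at 0.85 (0.59 to 1.11) in acinar cells, from 188 and 364 UMIs, and at 1.05 (0.37 to 1.74) in endocrine progenitor cells, from 35 and 42, and 0.91 there as a mean over cells. Slc7a7 overlaps Oxa1l by 232 bases, and the use of strand in counting is not given in the sources used. Oxa1l, a mitochondrial membrane insertase, lay between -0.27 and 0.04 over the classes.

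Tnfrsf19, a receptor of the tumour necrosis factor family known as TROY, was higher in Null mesenchymal cells. It had 278 UMIs and 10.5 CPM (9.33 to 11.8) in Control and 298 UMIs and 21.4 CPM (19.0 to 24.0) in Null cells, a log2 ratio of 1.02 (0.78 to 1.26). In mesothelial cells, where it was highest, it stood at 36.0 and 42.0 CPM, a log2 ratio of 0.22. Its mesenchymal ratio was 1.49 in cells with an Mgp UMI and 0.54 in those without. It was under 2-fold once free RNA was subtracted (0.94). It overlaps the predicted gene Gm41168. Lrp10 and Tm9sf1, a lipoprotein receptor relative and an endosomal membrane protein, stayed between -0.05 and 0.29 in all 7 classes.

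Psmb5 and the proteasome core genes outside the list were lower together, by less than 2-fold. Psmb5, a catalytic subunit of the core, was lower in the Null library in all 7 classes, from -0.41 in immune to -0.05 in endocrine cells, with 324 CPM (322 to 326) against 297 CPM (295 to 299) over all kept cells. The 13 core subunits outside the list were all lower over all kept cells, with a median of -0.09 and a range from -0.18 to -0.02. Nedd8, a ubiquitin-like protein, was also lower in all 7 classes, from -0.29 to -0.14.

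Psme1 and Psme2 encode the alpha and beta subunits of the PA28 proteasome activator, which interferon induces. In immune cells Psme1 had 334 CPM in Control and 402 CPM in Null cells, a log2 ratio of 0.26 (0.18 to 0.35). Psme2 had 143 and 189 CPM there, a log2 ratio of 0.40 (0.26 to 0.53). In the other 6 classes both lay between -0.21 and 0.07. The 13 measured genes of interferon response and antigen processing all had log2 ratios above 0 in immune cells, with a median of 0.61. Over all measured features of that class the median was -0.07. Markers of cell types within the class differed too: all 8 measured T cell markers were above 0, summing to 290 and 497 CPM, the mast cell chymase Cma1 stood at -1.76 and the basophil protease Mcpt8 at 2.41. Their part in the immune values of flanking genes was not tested. Irf9, a transcription factor of interferon signalling and itself a flanking gene, stood at 0.25 (-0.08 to 0.58) in immune cells, from 154 and 158 UMIs. Psme2 has a near-identical processed copy elsewhere in the genome, Psme2b, so its counts are uncertain. Rnf31, the catalytic subunit of the linear ubiquitin ligase, ran from -0.09 to 0.67, and Trim13, a ubiquitin ligase, from -0.45 to 0.13.

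The 8 genes of chromatin and transcription had ratios close to 0 over all kept cells, from -0.12 to 0.11. Mphosph8, a chromodomain protein of the HUSH silencing complex, had 36192 UMIs and 116 CPM in Control and 27788 UMIs and 115 CPM in the Null library, and ran from -0.15 to 0.05 over the classes. Over all kept cells the 4 measured partners of that complex outside the list had a median of 0.10, from 0.09 to 0.20. In immune cells 0 of these 4 partners were above 0 (from -0.35 to -0.06), and in mesothelial cells 2 were. In the remaining classes all 4 were above 0. Prmt5, an arginine methyltransferase, stood at -0.68 in immune and -0.43 in mesothelial cells, and between -0.16 and 0.03 elsewhere. Nfatc4, a calcineurin-regulated transcription factor, had 143 UMIs in Control and 167 in Null mesothelial cells, a log2 ratio of 0.95 (0.61 to 1.28). Within the 2 finer clusters of the mesothelial class it stood at 0.42 (-0.32 to 1.09) and 0.59 (-0.33 to 1.68). It had 33 and 1 UMIs in immune cells, below the minimum of 50. Zmym2, Zmym5 and Sap18 stayed between -0.04 and 0.32 in all classes, and Setdb2 ran from -0.37 to 0.55. Sap18 has a near-identical copy, Sap18b, so its counts are uncertain too.

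In endocrine cells the flanking genes of mitosis, and Ajuba and Lats2, were lower in the Null library. Ska3, part of the SKA complex that holds microtubules to kinetochores, had 111 UMIs and 5.04 CPM (4.15 to 6.07) in Control and 26 UMIs and 1.39 CPM (0.909 to 2.04) in Null endocrine cells. Its log2 ratio was -1.86 (-2.53 to -1.23), and it was -1.02 as a mean over cells and -1.13 with called doublets kept. Haus4, a subunit of the augmin complex that branches spindle microtubules, had 219 and 69 UMIs, a log2 ratio of -1.43 (-1.84 to -1.03), and -1.03 with called doublets kept. The 18 other genes of G2 and M phase measured there all had log2 ratios below 0, with a median of -2.43 and a range from -2.98 (Nusap1) to -0.40 (Ska2). Their summed level was 685 CPM in Control and 139 CPM in Null cells. Ska3 and Haus4 thus had ratios within the range of these genes. In endocrine progenitor cells Ska3 stood at -0.63 (-1.41 to 0.09) and Haus4 at -0.47 (-0.98 to 0.01), where the G2 and M genes had a median of -0.43.

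**Figure D4:**
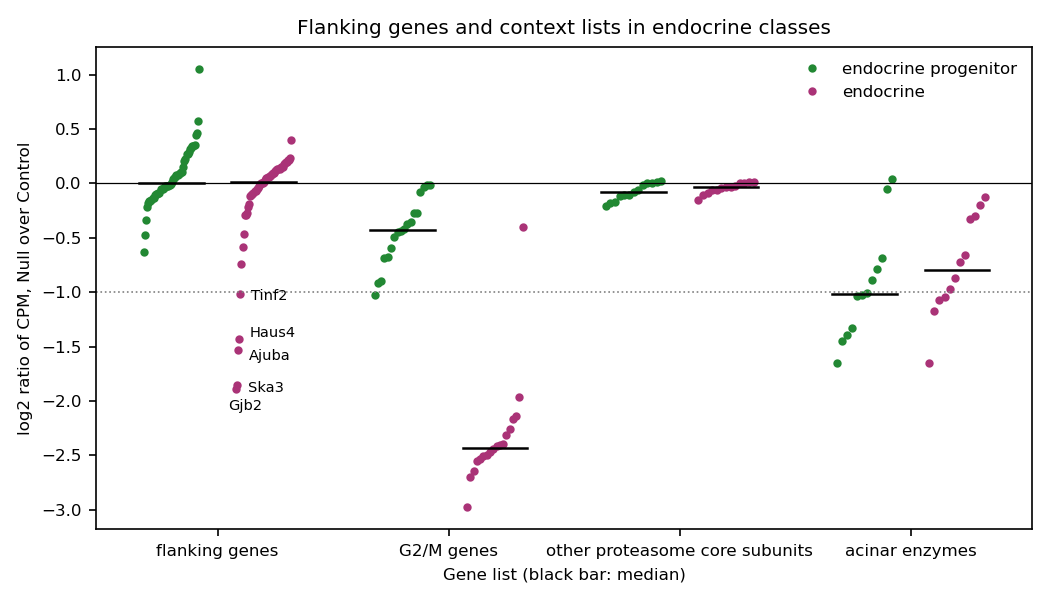
Points are genes with at least 50 UMIs in the class, sorted by value within each column, for the flanking genes and 3 lists of other genes in endocrine progenitor and endocrine cells; the vertical axis is the log2 ratio of CPM, Null over Control, and black bars are medians. Flanking genes centre on 0 in both classes, while 5 fall past 2-fold (dotted line) in endocrine cells, where G2 and M genes have a median of -2.43.

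Ajuba, a LIM protein that binds LATS kinases, had 92 and 27 UMIs in endocrine cells, a log2 ratio of -1.53 (-2.21 to -0.90). It was -0.13 as a mean over cells and -0.81 with called doublets kept. In ductal or bipotent cells, where it was highest, Ajuba had 1940 UMIs and 27.0 CPM (25.8 to 28.2) in Control and 2541 UMIs and 43.8 CPM (42.1 to 45.5) in Null cells, a log2 ratio of 0.70 (0.61 to 0.78). Lats2 likewise stood at -0.74 (-1.13 to -0.36) in endocrine and 0.41 (0.30 to 0.52) in ductal or bipotent cells. A list of other Hippo pathway and target genes had 10 measured members in endocrine cells with a median of -0.58, from Ccn1 at -1.997 to Lats1 at 0.20. In ductal or bipotent cells all 12 had log2 ratios above 0, with a median of 0.26 and Ankrd1 at 1.38. Ajuba was at 27.0 CPM in Control ductal cells against 4.18 CPM in Control endocrine cells, and free RNA was estimated at 22.6% of Control and 7.55% of Null endocrine UMIs. With that estimate subtracted, Haus4, Ska3 and Ajuba were the endocrine genes still past 2-fold, at -1.42, -2.51 and -2.48. For Ska3 and Ajuba these were further below 0 than without subtraction. The parts of free RNA, of remaining doublets and of cell makeup in these differences were not tested further.

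Ift88, needed for transport within cilia, had 752 UMIs in both libraries in endocrine cells, 34.1 against 40.2 CPM, a log2 ratio of 0.24. It stood at 0.42 (0.32 to 0.52) in ductal or bipotent cells and at -0.42 (-0.67 to -0.17) in mesothelial cells, and had 67 and 29 UMIs in immune cells, a log2 ratio of -0.998 (-1.68 to -0.35). That last value lies just inside 2-fold, while Tinf2 in endocrine cells at -1.02 and Tnfrsf19 in mesenchymal cells at 1.02 lie just beyond it.

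Among the genes of RNA handling, DNA repair and telomeres, Tinf2, a shelterin subunit at telomeres, was the one past 2-fold in a class. It had 181 UMIs and 8.22 CPM (7.06 to 9.51) in Control and 76 UMIs and 4.07 CPM in Null endocrine cells, a log2 ratio of -1.02 (-1.42 to -0.62). It was short of 2-fold under 6 of 8 alternatives, from -0.998 to -0.84. In the other 6 classes it lay between -0.31 and -0.11. Tinf2 overlaps Gmpr2, a guanosine monophosphate reductase, by 4512 bases, and Gmpr2 ran from -0.20 to 0.10. Pabpn1, the nuclear poly(A)-binding protein and the most abundant of the group, was lower in all 7 classes, from -0.25 to -0.07. Rnaseh2b, a subunit of ribonuclease H2, was lower in all 7 classes too, from -0.56 in mesothelial to -0.04 in acinar cells. Neil2, a DNA glycosylase, was measured in 3 classes, from -0.42 to 0.07, and Parp4, the vault PARP, ran from -0.01 to 0.50. The 3 nuclear transport receptors Ipo4, Xpo4 and Kpna3 stayed between -0.53 and 0.20.

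Of the remaining genes, Thtpa and Ap1g2 passed 2-fold in a class each, on few UMIs. Thtpa, a thiamine triphosphatase, had 38 and 15 UMIs in immune cells, a log2 ratio of -1.13 (-2.10 to -0.24), and -0.98 once free RNA was subtracted. Ap1g2, a gamma subunit of the AP-1 clathrin adaptor, had 83 and 21 UMIs in mesenchymal cells, a log2 ratio of -1.06 (-1.83 to -0.36), and stood at -0.73 once free RNA was subtracted. As a mean over cells it was -0.97, and with called doublets kept -0.94. With the mesenchymal clusters weighted alike it was -1.425, and in cells without an Mgp UMI -2.25. The 2 genes overlap each other by 412 bases, so reads in the shared bases cannot be assigned without strand. Rabggta, a geranylgeranyl transferase subunit, stood at -0.65 in mesenchymal and -0.76 in mesothelial cells. Efs, a Src-binding adaptor, ran from -0.58 to 0.49, and Spata13, an exchange factor for small GTPases, from -0.66 to 0.46. Ctsb, the lysosomal protease cathepsin B, was highest in immune cells, with 421 CPM in Control and 566 CPM in Null cells, a log2 ratio of 0.43 (0.35 to 0.50). The mitochondrial and cell death genes Oxa1l, Micu2, Mipep and Bcl2l2 stayed between -0.27 and 0.45 in all classes where they were measured.

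In these pools an effect of the allele in cis, linked strain sequence, loss of Fgf9 itself, the sex of the embryos and library preparation cannot be told apart for any single gene. In the annotation 23 of the 54 genes overlap another feature. Among those past 2-fold these are Slc7a7, Tnfrsf19, Tinf2, Ska3, Thtpa and Ap1g2. Ska3 and Sap18 overlap by 78 bases at their ends.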

How the data were processed

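The deposited matrices hold raw UMI counts as whole numbers, by gene and barcode, per the file headers. Per the submitters' processing notes, the authors used bcl2fastq, Cell Ranger 6.1.1 and Seurat 3.2.3 with the mm10 build. The use of strand in counting is not given in the sources used. The genes of this account, the gene lists and the class markers were chosen with earlier results of these data known, and the thresholds for naming clusters were set after the data were seen.

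Coordinates were taken from GENCODE vM21 (GRCm38) by gene identifier, matched for 32158 of 32285 features. Barcodes with at least 1000 UMIs, at least 300 genes and under 15% mitochondrially encoded UMIs were kept. Scrublet in scanpy 1.11.5 marked 0% of Control barcodes at its automatic threshold, so a score of 0.25 was used there (220 barcodes, 0.809%); for Null barcodes the automatic threshold was kept and marked 520 (5.53%). Called doublets were removed, and more may remain in the Control library. Total depth was 339959625 UMIs in 30209 Control barcodes and 271129120 UMIs in 16708 Null barcodes.

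Clustering was joint and without integration, with 2000 variable genes, 30 principal components, 15 neighbours and Leiden resolution 1. All 440 features between 52 and 64 Mb of chromosome 14 and sex-linked, haemoglobin, mitochondrial, ribosomal and immediate early genes were kept out of the variable genes. Each cluster was given the class with the highest markers relative to the 25th percentile over clusters, if 0.5 ahead of the next class on the log2 scale, with at least 3 markers in at least 10% of its cells.

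UMIs were summed per class and library and scaled to CPM over UMIs without haemoglobin and mitochondrial genes. Log2 ratios carry exact conditional 95% Poisson intervals, shares of cells Clopper-Pearson intervals. The interval code was tested on simulated data. Genes with at least 50 UMIs over both libraries in a class count as measured; a count of 0 allows up to 3 counts. No ratio is given where neither library is above 3 counts. Full values are given for genes past 2-fold in a class with an interval excluding 0 and for the 10 nearest to Fgf9. The alternatives were other UMI minimums, barcodes of at least 5000 UMIs, other scalings and weightings, doublets kept, resolution 2 and, chosen after the data were seen, subtraction of free RNA and a split of mesenchymal cells by Mgp. Values within finer clusters of the mesothelial class were also added after the data were seen.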

Additional observations from a re-analysis of the deposited data

Results flagged for a closer look

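For 3 genes the ratio of Null over Control went one way in some classes and the other way in others, each beyond 0.5 on the log2 scale with an interval that excluded 0; the differences between classes were not tested. Mmp14 stood at 0.64 in mesothelial, 0.6437 in ductal or bipotent and 0.5717 in endocrine progenitor cells, and at -1.824 in immune cells. Gjb2 stood at 1.278 in mesothelial cells, and at -1.483 in mesenchymal, -0.5489 in ductal or bipotent and -1.889 in endocrine cells. Ajuba stood at 0.6967 in ductal or bipotent and at -1.532 in endocrine cells.

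Trac UMIs also appeared in Null barcodes outside the classes compared, above the Control library. Unnamed Null barcodes had 24 UMIs and 9.976 CPM, against 0.187 CPM in unnamed Control barcodes. Called Null doublets had 78 UMIs in 22 of 520 barcodes and 5.137 CPM, against 0 UMIs in 220 called Control doublets.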

How the results depend on the processing

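No paired analysis was possible because each group is 1 library and the labels give no replicate numbers. Of 79 alternative counts of flanking genes past 2-fold, 57 stayed within 1.5 times the value in the report, as did 35 of 39 alternative Trac ratios within their counting interval, and no called value changed sign; the causes of the moves were not tested. Over all kept cells Trac stood at 4.362 as a mean over cells. In acinar cells, with 3 and 4 UMIs, it stood at -2.442 by that mean. In mesenchymal cells it stood at 2.992 with and 4.09 without an Mgp UMI, and between 4.318 and 4.894 under the alternatives other than these. The mesenchymal count of 4 was 2 at a minimum of 200 UMIs, 2 with doublets kept, 2 in cells with Mgp and 1 with free RNA subtracted. The mesothelial count of 1 was 2 at a minimum of 20 UMIs, 0 at 200, 2 at resolution 2 (Setdb2 and Rabggta, both lower, without Gjb2) and 2 with free RNA subtracted. At resolution 2 the cluster led by Upk3b and Oprk1 was unnamed and left the class. The mesothelial class there held 1056 Control and 94 Null cells, fewer than the 200 per library required of classes, so it was a different set of cells. The acinar count of 1 was 0 by the mean over cells and 0 with clusters weighted alike. The ductal or bipotent count of 0 was 1 (Slc7a8) with free RNA subtracted. The endocrine progenitor count of 1 was 2 at a minimum of 20, and 0 at 200, by the mean over cells and with doublets kept. The endocrine count of 5 was 2 at 200, 3 by the mean over cells and 3 with free RNA subtracted. The immune count of 2 was 6 at 20, 0 at 200, 4 with clusters weighted alike and 1 with free RNA subtracted. Over all these settings the median log2 ratio of the flanking genes stayed between -0.15 and 0.13 in every class and over all kept cells. Depth limits the rarer genes: past 2-fold, Gjb2, Ap1g2, Slc7a7 and Thtpa rest on 10 to 83 UMIs in a library.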

Other observations

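Among other features between 52 and 64 Mb of chromosome 14, 3 with ratios past 2-fold over all kept cells encode proteases of granulocytes, mast cells or basophils, and nearly all their UMIs were in immune cells. Ctsg, the protease cathepsin G, had 350 UMIs in Control and 13 in Null immune cells, a log2 ratio of -4.54 (-5.46 to -3.75). Cma1, a mast cell chymase, had 2407 and 613 UMIs there, a log2 ratio of -1.76 (-1.89 to -1.63). Mcpt8, a basophil protease, went the other way, with 222 and 1021 UMIs and a log2 ratio of 2.41 (2.20 to 2.63). Over all kept cells the next largest were Gm33321 at -0.88 and C1qtnf9 at -0.51, and Blk, a B cell kinase, at 1.17, Phf11b at 1.04, Gjb6 at 0.91 and Kcnrg at 0.87.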
